A study of Homo sapiens with 6 samples.

Results

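Hepatocytes clear drugs, hormones and bile acids through a chain of membrane-bound and soluble proteins, and the genes for 43 of these were described here in Hep G2 cells with and without stable EFTUD2 overexpression. Cytochrome P450 enzymes oxidize a compound with electrons passed on by the reductase POR, transferases then couple the product to glucuronic acid, sulfate or glutathione, and pumps in the membrane export the conjugate. Bile acids are made from cholesterol by other P450 enzymes, are coupled to glycine or taurine by BAAT, and leave the cell through some of the same pumps. Nuclear receptors such as PXR (gene NR1I2) and CAR (NR1I3), and the aryl hydrocarbon receptor AHR, sense foreign compounds and switch on many of these genes. Hep G2, a line from a human liver tumor, is known to hold on to only a part of this program.

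The members were fixed by gene symbol, and all 43 were found among the 23524 genes of the deposited table. They comprise 12 drug- and fatty acid-oxidizing P450 enzymes with POR, 4 genes of bile acid synthesis and conjugation, 2 P450 enzymes that break down vitamin D and retinoic acid, 14 conjugating enzymes, 7 transporters and 3 receptors. The study infected Hep G2 cells with an empty lentivirus vector (control, 3 libraries) or with a lentivirus that carried EFTUD2, a GTPase of the spliceosome (EFTUD2-overexpressing, 3 libraries), selected both in puromycin, and sequenced poly-A-selected mRNA. The promoter of the vector was not given in the sources used here, and the labels do not say whether the 3 libraries of a group came from separate cultures, so the p-values measure only the spread between these libraries. Levels were given as FPKM, the fragments mapped to a transcript scaled by its length and by the library total, so levels of different genes can be set side by side, while the read depth behind them is unknown.

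EFTUD2 mRNA was 106.3 ± 3.30 FPKM (SD, n = 3) in the EFTUD2-overexpressing libraries and 47.3 ± 6.66 FPKM (SD, n = 3) in the controls, a ratio of 2.25 in the direction of the labels. Its log2 fold change of 1.16 had a limma adjusted p of 0.131. All 12 hepatocyte markers checked had a control mean of at least 1 FPKM, with albumin (ALB) between 1773 and 4732 FPKM in the 6 libraries. A pair of libraries stood apart from their groups. The log2 values of EFTUD2 replicate 3 differed from those of EFTUD2 replicates 1 and 2 with an SD over genes of 0.508 and 0.596, against 0.231 between replicates 1 and 2. Among the controls, replicate 1 differed from replicates 2 and 3 with SDs of 0.363 and 0.295, against 0.213 between the latter. For 21 of the 43 members EFTUD2 replicate 3 lay outside the range of the other 5 libraries, and for 20 members control replicate 1 was the highest or the lowest of the 6.

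In the controls the 43 genes ranged from near 0 FPKM to a mean of 125.1 FPKM for POR. The control mean was at least 50 FPKM for 4 genes, namely POR, ABCC2, SULT1A1 and CYP27A1. It lay between 10 and 50 FPKM for 8 genes, between 1 and 10 FPKM for 14 and under 1 FPKM for 17. A set of 10 genes, most of them known for high expression in liver or for induction by drugs and retinoids, were at no more than 0.25 FPKM in every library: CYP1A2, CYP1B1, CYP2B6, CYP2C8, CYP3A4, CYP7A1, CYP26A1, ABCB11, SLC10A1 and SLCO1B1. CYP3A4, the main drug-oxidizing P450 of adult liver, was thus near 0 in cells that carried POR and the pump ABCC2 at high levels.

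**Figure D1:**
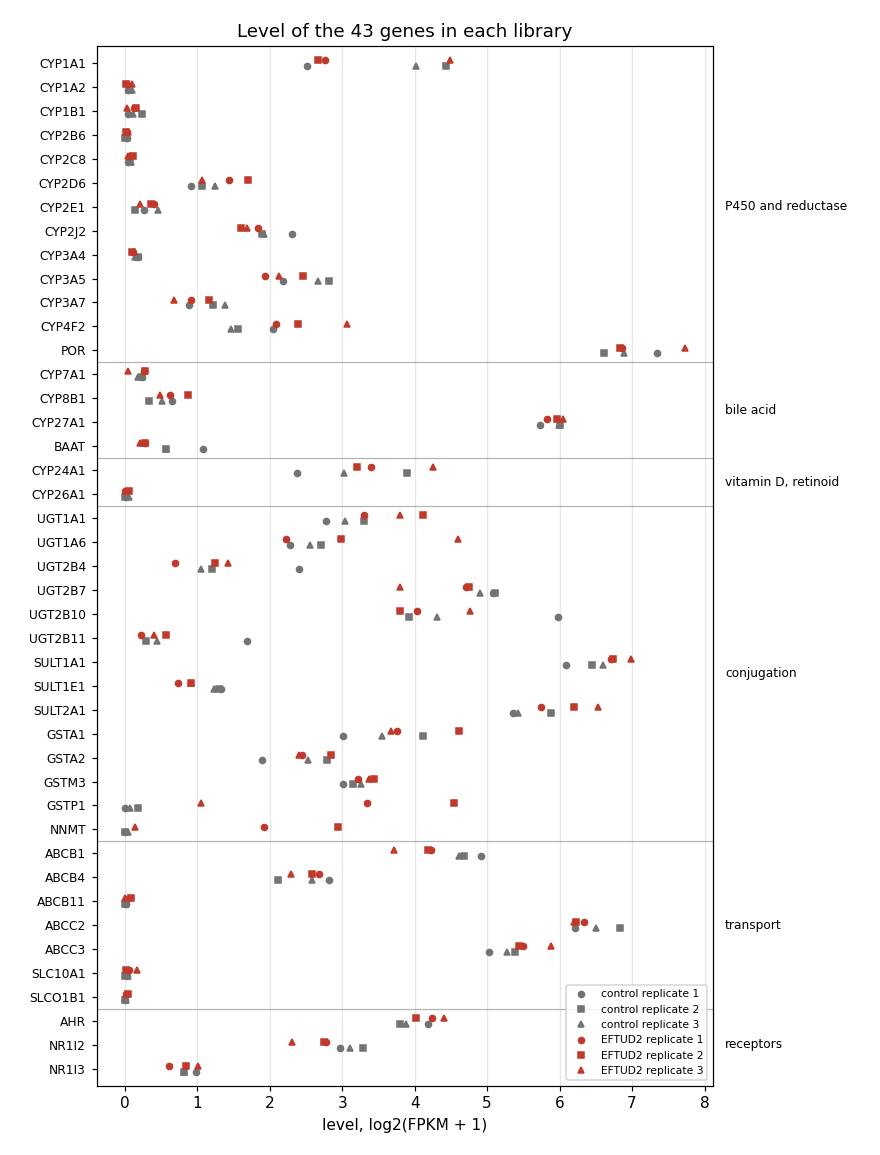
Level of each of the 43 genes on a log2(FPKM + 1) axis, in 3 control libraries (gray) and 3 EFTUD2-overexpressing libraries (red), with a symbol for each replicate number and genes grouped by role. Most genes keep their place on the axis in both groups, while GSTP1 and NNMT lie near 0 in all 3 controls and spread widely over the EFTUD2-overexpressing libraries.

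The comparison asked which of these genes differ with EFTUD2 overexpression. A filter at a mean of 0.1 FPKM over the 6 libraries left 35 of the 43 genes, and these were compared within a limma fit of 17222 genes on log2(FPKM + 1). None of the 35 passed an adjusted p of 0.05 (Benjamini-Hochberg adjustment over all genes, lowest adjusted p = 0.392), which matched the 0% of all genes tested that passed it. At an unadjusted p under 0.05, 7 genes were higher with EFTUD2 and 4 were lower, where the background was 4.4% higher and 7.9% lower among all genes tested. For 5 genes every EFTUD2-overexpressing library lay above every control (14.3%, against 7.92% of all genes tested), and for 7 genes every such library lay below (20.0%, against 19.4%). The lower share was thus close to that of all genes. GSTP1 and NNMT were the 2 members with log2 fold changes of 1 or more, against 1.25% of all genes tested. No member was lower by as much, against 0.273%. GSTP1 and NNMT are also among the 5 genes above every control. Their control means were 0.06 and 0.01 FPKM, so they passed the filter only through the EFTUD2-overexpressing libraries and could be counted only as higher. The share of 14.3% rests in part on them and is not read as an excess. The remaining genes above every control were CYP4F2, SULT1A1 and ABCC3. The counts at a log2 fold change of 1 depended on the pseudocount. At 0.1 in place of 1, CYP4F2 (1.04) joined GSTP1 and NNMT, BAAT was at -1.35, and the shares of all genes were 4.69% and 2.01%. Leaving out EFTUD2 replicate 3 brought GSTP1 and NNMT past the adjusted threshold, with 0.761% of all genes tested. Weighting the libraries by their spread called 5 members (CYP4F2, UGT1A1, SULT2A1, NNMT and GSTP1) and 7.23% of all genes. However, the estimate of these weights raised a warning, and they ran from 0.0348 for EFTUD2 replicate 1 to 27.7 for control replicate 3. Weights estimated gene by gene called 6 members (SULT1E1, CYP4F2, NR1I2, ABCB1, NNMT and GSTP1) and 7.87% of all genes. These calls leaned on EFTUD2 replicate 1 (weight 4.11) and control replicate 3 (3.54). EFTUD2 replicate 3 (0.121) and control replicate 1 (0.480) counted for little.

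The median log2 fold change of the 35 genes was 0.038 (quartiles -0.364 and 0.407), beside -0.0749 over all genes tested. After scaling to the median ratio of each library (median-of-ratios scaling), 7 members were above and 5 below every control, and over all genes the counts went from 1364 above and 3337 below to 2330 above and 1878 below. The number of members above every control was 9 without control replicate 2, where 9.74% of all genes were, and 9 without EFTUD2 replicate 1, where 9.91% were. For a single gene the exact permutation test of 3 libraries against 3 (two-sided) cannot give a p below 0.1. Separate groups always give this value, so for the 12 genes with separate groups the test adds nothing.

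**Figure D2:**
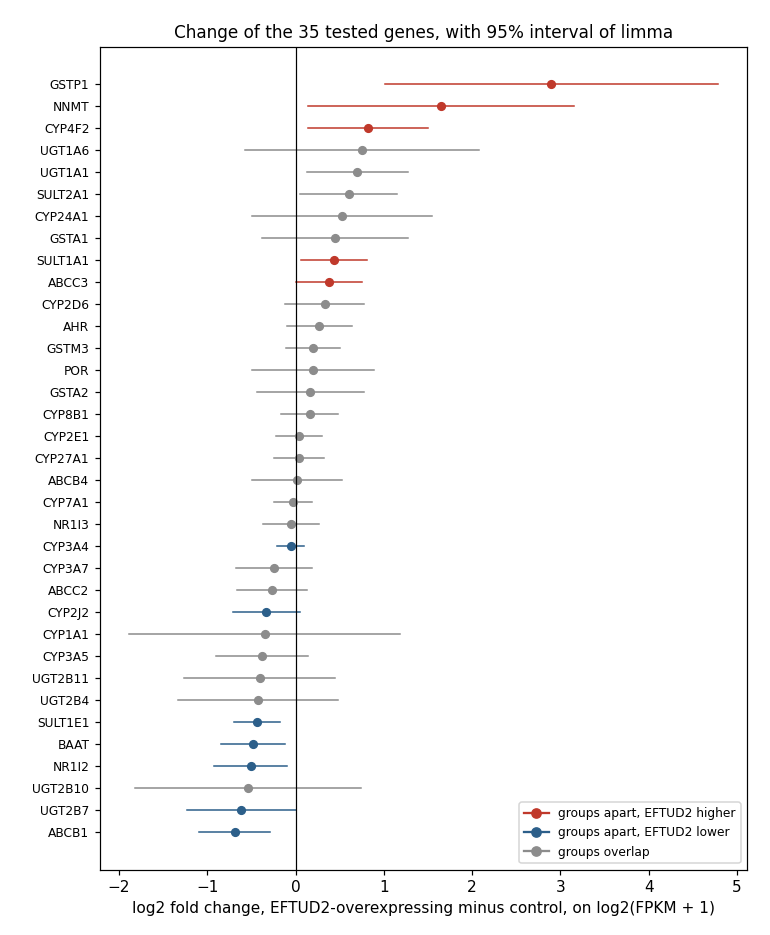
Log2 fold change of the 35 tested genes, EFTUD2-overexpressing minus control, on log2(FPKM + 1), with the 95% interval of the limma fit and colored by whether the groups overlap. The interval of GSTP1 runs from 1.01 to 4.78, and that of ABCB1, the lowest value, from -1.10 to -0.28.

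Promoter sequence is shown for 4 members that stand for the main patterns: GSTP1, the largest difference, ABCB1 and SULT1E1, both below every control, and CYP1A1, the classic AHR target, which varied widely within the groups. Of the 43 genes, 32 matched the RefSeq promoter table (GRCh38.p14), with 37 windows of 300 bases that run from 250 bases before to 50 bases after a start site. Each is printed 5′ to 3′ on the strand of the gene. Capitals mark matches to the motifs searched, which were GCGTG (the core bound by AHR with its partner ARNT) and TGACNNNGC (the core of the antioxidant response element) on both strands and TATAAA (the TATA box) on the gene's strand, in addition to the HNF1 palindrome on both strands.
GSTP1, chr11:67583562-67583861, plus strand: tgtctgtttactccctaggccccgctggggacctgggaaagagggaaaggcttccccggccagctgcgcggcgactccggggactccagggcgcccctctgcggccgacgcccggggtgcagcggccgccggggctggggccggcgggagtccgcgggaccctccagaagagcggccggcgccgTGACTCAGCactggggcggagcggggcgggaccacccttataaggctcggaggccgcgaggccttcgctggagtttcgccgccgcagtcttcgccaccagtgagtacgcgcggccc
ABCB1, chr7:87600835-87601134, minus strand: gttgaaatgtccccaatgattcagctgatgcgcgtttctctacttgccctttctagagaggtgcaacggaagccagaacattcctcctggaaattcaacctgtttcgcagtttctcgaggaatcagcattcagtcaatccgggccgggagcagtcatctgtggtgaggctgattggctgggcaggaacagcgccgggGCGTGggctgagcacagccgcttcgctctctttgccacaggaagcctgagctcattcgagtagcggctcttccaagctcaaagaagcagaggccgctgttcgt
SULT1E1, chr4:69860096-69860395, minus strand: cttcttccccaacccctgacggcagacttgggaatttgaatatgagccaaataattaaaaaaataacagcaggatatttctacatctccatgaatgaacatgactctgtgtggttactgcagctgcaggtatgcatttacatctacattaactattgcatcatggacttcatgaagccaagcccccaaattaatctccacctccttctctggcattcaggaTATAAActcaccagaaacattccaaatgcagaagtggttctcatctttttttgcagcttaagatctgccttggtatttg
CYP1A1, chr15:74725479-74725778, minus strand: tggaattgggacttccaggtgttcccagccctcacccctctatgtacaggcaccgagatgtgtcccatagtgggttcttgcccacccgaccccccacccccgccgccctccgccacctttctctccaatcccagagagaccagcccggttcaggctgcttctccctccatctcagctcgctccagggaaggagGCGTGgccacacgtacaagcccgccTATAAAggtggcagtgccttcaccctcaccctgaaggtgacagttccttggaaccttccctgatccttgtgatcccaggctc

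The GSTP1 window was the richest of all member windows in CpG dinucleotides, with 36, a count reached by 12.7% of all 35116 windows in the table. Its antioxidant element core, TGACTCAGC, begins 66 bases before the start site. The SULT1E1 window held 1 CpG and a TATA box 29 bases before the start. A GCGTG core lay 53 bases before the start in ABCB1 and 57 bases before it in CYP1A1. The ABCB1 window printed is the CpG-rich one of 2 in the table, with 16 CpG against 1 in the other.

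Member promoters as a set were poor in CpG and often had a TATA box. The median was 2 CpG per window, against 14 over all windows. TATAAA was present in 14 of 37 member windows (37.8%) and in 7.33% of all windows, GCGTG in 7 (18.9%, against 36.5%) and TGACNNNGC in 6 (16.2%, against 13.3%). The HNF1 palindrome was in 0 member windows and in 0.0057% of all windows. A match is only a run of letters in this window, and no test of these features against the expression values was run.

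Among the receptors, NR1I2 was below every control in each EFTUD2-overexpressing library. It was at 6.80, 8.77 and 7.61 FPKM across control replicates 1 to 3, against 5.85, 5.73 and 3.97 FPKM across EFTUD2 replicates 1 to 3. EFTUD2 replicate 3 was the lowest, and the closest values, 5.85 and 6.80 FPKM, belonged to replicate 1 of each group. The log2 fold change was -0.51 (standard error, SE, 0.17, limma adjusted p = 0.402), and -0.36 without EFTUD2 replicate 3. PXR, the product of NR1I2, is a receptor for many drugs and for bile acids and drives CYP3A4, CYP2B6 and ABCB1.

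AHR, the receptor for dioxin-like compounds, was at 17.16, 12.90 and 13.68 FPKM across the controls, against 17.94, 15.24 and 20.15 FPKM across the EFTUD2-overexpressing libraries. These ranges overlapped, because control replicate 1 lay above EFTUD2 replicate 2 (log2 fold change 0.27, SE 0.15, limma adjusted p = 0.448). The CAR gene NR1I3 was under or near 1 FPKM throughout, from 0.76 to 0.98 FPKM across the controls and from 0.52 to 1.02 FPKM with EFTUD2. Its log2 fold change was -0.05, and the sign turned with the scaling.

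The inducible P450 gene CYP1A1, which oxidizes polycyclic aromatic compounds, differed far more within the groups than between them. Its level was 4.70, 20.56 and 15.18 FPKM in control replicates 1 to 3 and 5.76, 5.36 and 21.33 FPKM across EFTUD2 replicates 1 to 3. Control replicate 1 and EFTUD2 replicates 1 and 2 formed the low values, and the other 3 libraries were high. The log2 fold change of -0.35 carried a 95% interval from -1.88 to 1.18, and it was 0.039 without control replicate 2. Without EFTUD2 replicate 3 it was -0.94, with an adjusted p of 0.435 (limma).

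Of the 6 other xenobiotic P450 genes tested, CYP2J2 and CYP3A4 lay below every control and the other 4 overlapped, with 0 past the adjusted threshold in limma. CYP3A5, a close relative of CYP3A4 with a similar range of substrates, was at 3.54, 6.04 and 5.34 FPKM across the controls, against 2.83, 4.5 and 3.38 FPKM with EFTUD2. The fetal form CYP3A7 was at 0.85, 1.32 and 1.61 FPKM across the controls, against 0.88, 1.23 and 0.60 FPKM with EFTUD2. Both genes overlapped between groups, with log2 fold changes of -0.38 (-0.25 without control replicate 2) and -0.25 (-0.13 without EFTUD2 replicate 3). CYP3A4 itself stood at 0.10 to 0.14 FPKM across the controls and 0.07 to 0.09 FPKM with EFTUD2, groups that did not overlap but that differed by little more than the rounding of the table to 0.01 FPKM. The 3 CYP3A genes had negative log2 fold changes in all 14 alternatives in which CYP3A5 and CYP3A7 were fitted and in the 13 with CYP3A4.

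CYP2J2, an epoxygenase of arachidonic acid, was below every control. It was at 3.95, 2.73 and 2.79 FPKM across the controls, against 2.58, 2.05 and 2.22 FPKM with EFTUD2 (log2 fold change -0.33, SE 0.16, limma adjusted p = 0.414). The gap between the groups, from 2.58 to 2.73 FPKM, was smaller than the spread within either, and without control replicate 1 the log2 fold change was -0.20. CYP2D6, which oxidizes many antidepressants and opioids, went the other way on average, at 0.88, 1.10 and 1.37 FPKM across the controls and 1.71, 2.26 and 1.10 FPKM with EFTUD2. EFTUD2 replicate 3 equaled control replicate 2 there, and the log2 fold change of 0.33 was 0.50 without EFTUD2 replicate 3 and 0.18 without EFTUD2 replicate 2. CYP2E1, which oxidizes ethanol and acetaminophen, ranged from 0.10 to 0.37 FPKM over all 6 libraries with no separation.

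CYP4F2 was the P450 gene with the largest difference. It inactivates vitamin K and leukotrienes by omega-hydroxylation, and it was at 3.12, 1.94 and 1.77 FPKM across the controls, against 3.23, 4.22 and 7.37 FPKM across EFTUD2 replicates 1 to 3. All 3 EFTUD2-overexpressing libraries were above the controls, though replicate 1 of each group nearly met and replicate 3 was the highest. The log2 fold change was 0.82 (SE 0.29, limma adjusted p = 0.402), and 0.54 without EFTUD2 replicate 3. The related gene CYP4F3 had the same order. It was at 9.64, 8.16 and 7.58 FPKM across the controls and 10.51, 10.64 and 20.45 FPKM with EFTUD2. CYP4F11 and CYP4F12 of the same family had groups that overlapped (log2 fold changes 0.31 and 0.15). Of the 50-base words in CYP4F2 transcripts, 12.1% also occur in another gene, mostly CYP4F3, so reads of the pair can be assigned to either.

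POR, which donates electrons to all of these enzymes, was the most abundant member. It was at 160.8, 97.3 and 117.3 FPKM across the controls, against 115.8, 113.0 and 211.0 FPKM with EFTUD2. The higher mean with EFTUD2 came from replicate 3, and without it the log2 fold change went from 0.20 to -0.097, while it was 0.39 without control replicate 1.

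Of the 4 bile acid members, BAAT alone had groups that did not overlap. BAAT, which couples bile acids to glycine or taurine, was at 1.12, 0.48 and 0.48 FPKM across the controls, against 0.21, 0.21 and 0.16 FPKM with EFTUD2. Each EFTUD2-overexpressing library was below each control, and control replicate 1 alone lay above 1 FPKM. The ratio of the means was 0.279, the log2 fold change -0.48 (SE 0.15) and the adjusted p 0.402 (limma). Over the 13 alternatives the log2 fold change ran from -1.35 (pseudocount 0.1) to -0.31 (without control replicate 1), and the adjusted p from 0.0659 to 0.679.

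CYP27A1, the mitochondrial sterol 27-hydroxylase that opens the acidic pathway, was high and nearly level. It was at 52.1, 63.3 and 62.5 FPKM across the controls, against 55.9, 61.3 and 65.2 FPKM with EFTUD2, with a 95% interval of the log2 fold change from -0.25 to 0.32. CYP7A1, the rate-limiting enzyme of the classic pathway, was at 0.13 to 0.18 FPKM across the controls, against 0.20, 0.21 and 0.03 FPKM with EFTUD2. CYP8B1, which makes cholic acid, was at 0.26 to 0.57 FPKM and at 0.40 to 0.83 FPKM. Neither of these low genes separated the groups.

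CYP24A1, the 24-hydroxylase that ends the action of vitamin D, varied within both groups. It was at 4.20, 13.80 and 7.12 FPKM across the controls, against 9.56, 8.25 and 18.07 FPKM with EFTUD2 (log2 fold change 0.53, SE 0.43, limma adjusted p = 0.556). The value was 0.17 without control replicate 1, 0.92 without control replicate 2 and 0.21 without EFTUD2 replicate 3. The retinoic acid hydroxylase CYP26A1 was at 0.04 FPKM or less in every library.

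The conjugating enzymes held the largest differences of the whole set, in GSTP1 and NNMT. GSTP1, the pi-class glutathione transferase that is common in bile duct and tumor cells but low in hepatocytes, was at 0, 0.13 and 0.05 FPKM across control replicates 1 to 3, against 9.12, 22.28 and 1.08 FPKM across EFTUD2 replicates 1 to 3. NNMT, which methylates nicotinamide with S-adenosylmethionine, was at 0, 0 and 0.03 FPKM and at 2.79, 6.65 and 0.10 FPKM. Every EFTUD2-overexpressing library lay above every control for both genes, but EFTUD2 replicate 3 was near the control level for NNMT and far below its group for GSTP1.

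The log2 fold change was 2.90 for GSTP1 (SE 0.79) and 1.65 for NNMT (SE 0.63), each with an adjusted p of 0.402 from limma. Without EFTUD2 replicate 2 the value for NNMT was 1.02. Without EFTUD2 replicate 3 the values were 3.86 and 2.41, and the adjusted p was 0.022 for GSTP1 and 0.0317 for NNMT (limma). Over the 14 alternatives their adjusted p ran from 0.00538 to 0.679 and from 0.0077 to 0.679. None of the 50-base words of either gene's transcripts was found in another gene.

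Both genes had the same order over the EFTUD2-overexpressing libraries, and several marker genes of other cells shared it. Relative to EFTUD2 replicate 2, the level of GSTP1 was 0.409 in replicate 1 and 0.048 in replicate 3, and that of NNMT 0.42 and 0.015. Vimentin (VIM), a filament protein of mesenchymal cells, had ratios of 0.39 and 0.048, and the keratin KRT17 had 0.495 and 0.069. EFTUD2 mRNA did not follow this order, with 106.6, 102.9 and 109.5 FPKM.

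The whole marker lists were read beside these values. The 10 fibroblast markers summed to between 0.61 and 1.71 FPKM across the controls and to 26.13, 64.50 and 5.22 FPKM across EFTUD2 replicates 1 to 3, of which VIM made up 23.22, 59.59 and 2.87 FPKM. Of this list COL1A2 was listed at 0 in all 6 libraries, THY1, PDGFRA and DCN were at 0.04 FPKM or less, and FAP did not exceed 0.07 FPKM. PDGFRB was at 1.43, 0.41 and 1.05 FPKM across the controls and 1.10, 0.68 and 2.07 FPKM with EFTUD2. Its groups overlapped, and it did not have the replicate order of VIM, since EFTUD2 replicate 3 was the highest and replicate 2 the lowest. COL3A1 was listed at 0 in the 3 controls and was at 0.62, 1.49 and 0.14 FPKM with EFTUD2, above every control. COL1A1 was at 0.78, 2.05 and 0.11 FPKM, against 0.09 to 0.15 FPKM across the controls, and LUM at 0.35, 0.56 and 0.01 FPKM, against at most 0.01 FPKM, so these collagen and matrix genes had the replicate order of VIM. The 5 squamous markers summed to between 1.12 and 1.80 FPKM across the controls and to 67.23, 135.96 and 9.39 FPKM with EFTUD2, nearly all from KRT17, with KRT5 listed at 0 throughout. KRT14 did not exceed 0.01 FPKM in any control and reached 0.29, 0.83 and 0.09 FPKM with EFTUD2.

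Of the other lists, the 5 biliary markers summed to between 484.5 and 556.6 FPKM across the controls and to between 280.1 and 367.0 FPKM with EFTUD2. KRT19 was below every control, at 163.01, 153.47 and 102.53 FPKM against 314.07 to 372.65 FPKM (log2 fold change -1.34, SE 0.19, limma adjusted p = 0.207). KRT7 had a higher mean with EFTUD2, at 24.68, 61.23 and 0.78 FPKM against 0.61 to 1.34 FPKM, but its groups overlapped. SOX9 and EPCAM overlapped too (log2 fold changes 0.02 and -0.09), and CFTR was listed at 0 throughout. The 8 macrophage markers summed to between 19.14 and 31.87 FPKM across the controls and 27.68 to 35.98 FPKM with EFTUD2, mostly from CD68, while TYROBP was listed at 0 and PTPRC did not exceed 0.02 FPKM. CD14 of that list was above every control, at 1.41, 2.06 and 2.51 FPKM against 0.60 to 1.03 FPKM. The 6 endothelial markers summed to between 1.26 and 1.75 FPKM in all libraries, but CDH5 (0.19 to 0.28 against 0.06 to 0.08 FPKM) and VWF (0.46 to 0.60 against 0.15 to 0.33 FPKM) were above every control, and PECAM1 (0.54 to 0.81 against 0.85 to 1.19 FPKM) was below. The part of these markers in the levels of GSTP1 and NNMT was not tested. In bulk RNA, fewer cells with a transcript and less of it per cell cannot be told apart.

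**Figure D3:**
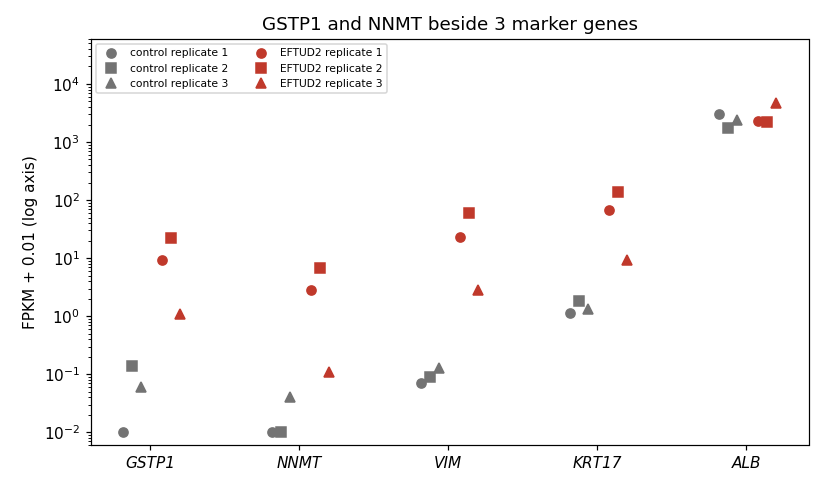
FPKM + 0.01 on a log axis for GSTP1 and NNMT beside vimentin (VIM), KRT17 and albumin (ALB), with 1 point per library, gray for control and red for EFTUD2-overexpressing. In each of the first 4 genes EFTUD2 replicate 2 is highest and replicate 3 lowest of the red points. Albumin lies between 1773 and 4732 FPKM, with groups that overlap.

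Alpha-class glutathione transferases were detected in all libraries with overlapping groups. GSTA1 was at 7.10, 16.31 and 10.72 FPKM across the controls, against 12.45, 23.41 and 11.76 FPKM with EFTUD2, and GSTA2 at 2.71, 5.91 and 4.75 FPKM and at 4.47, 6.21 and 4.31 FPKM. The log2 fold change of GSTA1 was 0.45, and 0.18 without control replicate 1 or 0.15 without EFTUD2 replicate 2. In each group the highest value of both genes fell in the library numbered 2. Their transcripts share sequence, with 26.2% of the GSTA1 words and 18.4% of the GSTA2 words also in another gene. The mu-class gene GSTM3 was at 7.08, 7.89 and 8.60 FPKM across the controls and 8.27, 9.88 and 9.35 FPKM with EFTUD2 (log2 fold change 0.20, SE 0.13).

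Of the 6 glucuronosyltransferase members, UGT1A1 and UGT1A6 had positive and the 4 UGT2B genes negative log2 fold changes, of which 0 passed the adjusted threshold in limma. UGT1A1, the enzyme that conjugates bilirubin, was at 5.83, 8.82 and 7.18 FPKM across the controls, against 8.81, 16.27 and 12.93 FPKM with EFTUD2. The groups met narrowly, where EFTUD2 replicate 1 lay 0.01 FPKM under control replicate 2 (log2 fold change 0.70, SE 0.24, limma adjusted p = 0.402). UGT1A6, which prefers small planar phenols, was at 3.86, 5.56 and 4.90 FPKM across the controls, against 3.68, 6.91 and 23.31 FPKM with EFTUD2, so that its mean rested on replicate 3. Without that library its log2 fold change went from 0.75 to 0.087, and with gene-by-gene weights it was -0.12. The UGT1A genes use alternative starts with shared last exons, and 49.4% of the UGT1A1 words and 41.6% of the UGT1A6 words also occur in another gene, so the split of reads between them is uncertain.

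All 4 UGT2B members had a negative log2 fold change, with the values as deposited and after median-of-ratios scaling, although UGT2B10 and UGT2B11 turned positive without control replicate 1. UGT2B7, which conjugates morphine and steroids, was at 32.89, 33.45 and 28.78 FPKM across the controls, against 25.04, 25.88 and 12.85 FPKM with EFTUD2. The groups did not overlap and EFTUD2 replicate 3 was lowest (log2 fold change -0.61, SE 0.26, limma adjusted p = 0.402), and without that library the value was -0.30. UGT2B10, which attaches glucuronic acid to amines, was at 61.96, 14.22 and 18.86 FPKM across the controls, against 15.40, 12.86 and 26.08 FPKM with EFTUD2. Its lower mean came from control replicate 1, and without that control the log2 fold change turned from -0.54 to 0.076.

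Control replicate 1 stood out in the same way for UGT2B4 and UGT2B11. UGT2B4 was at 4.27 FPKM there, against 1.3 and 1.08 FPKM in the other controls and 0.62, 1.37 and 1.69 FPKM with EFTUD2, and its log2 fold change went from -0.43 to -0.006 without that control. UGT2B11 was at 2.23 FPKM there and between 0.17 and 0.49 FPKM in the other 5 libraries. Summed over the 4 genes, the level was 101.4, 49.2 and 49.1 FPKM across the controls and 41.2, 40.6 and 40.9 FPKM with EFTUD2. Within this family 30.9% of the UGT2B10 words and 36.4% of the UGT2B11 words were shared with another gene, against 5.38% for UGT2B7.

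Mean differences of opposite sign were also seen among the sulfotransferases. SULT1A1, which sulfates phenols, was above every control, at 66.96, 86.21 and 95.64 FPKM across the controls and 103.8, 106.1 and 125.6 FPKM with EFTUD2 (log2 fold change 0.44, SE 0.16, limma adjusted p = 0.402). SULT2A1, which sulfates bile acids and the steroid DHEA, was at 39.97, 57.86 and 41.83 FPKM and at 52.48, 72.19 and 91.30 FPKM, with an overlap between EFTUD2 replicate 1 and control replicate 2 (log2 fold change 0.60, SE 0.23, limma adjusted p = 0.402). SULT1E1, the estrogen sulfotransferase, was tight within both groups, at 1.5, 1.47 and 1.34 FPKM across the controls and 0.66, 0.88 and 0.89 FPKM with EFTUD2. It was below the controls in every library, with a log2 fold change of -0.43 (SE 0.11, limma adjusted p = 0.402). Of the SULT1A1 words 14.9% also occur in another gene, and of the SULT1E1 words 20.0%.

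Among the transporters, ABCB1 had the lowest p of all members. ABCB1 encodes P-glycoprotein, the multidrug efflux pump, and was at 29.16, 24.63 and 23.37 FPKM across the controls, against 17.70, 17.26 and 12.11 FPKM with EFTUD2. The 3 EFTUD2-overexpressing libraries were all below the lowest control, with replicate 3 the lowest of all. The ratio of means was 0.61, and the log2 fold change -0.69 (SE 0.17, unadjusted p = 0.00523 and limma adjusted p = 0.392). It was -0.53 without EFTUD2 replicate 3 and -0.56 after median-of-ratios scaling, and over the 14 alternatives the adjusted p ran from 0.0227 to 0.679. Only 2.02% of its words occur in another gene, ABCB4.

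The bile-side pumps and basolateral pumps showed smaller differences. ABCC3, which exports glucuronides and bile acids to the blood side, was above every control, at 31.67, 40.74 and 37.76 FPKM across the controls and 44.14, 42.55 and 57.83 FPKM with EFTUD2 (log2 fold change 0.38, SE 0.16, limma adjusted p = 0.402), and without EFTUD2 replicate 3 the value was 0.24. ABCC2, which exports bilirubin glucuronides into bile, was at 73.2, 113.3 and 89.9 FPKM across the controls, against 79.5, 73.8 and 72.5 FPKM with EFTUD2. Its groups overlapped, since control replicate 1 was at the level of the EFTUD2-overexpressing libraries, and the log2 fold change of -0.27 was -0.42 without that control and -0.11 without control replicate 2. ABCB4, the phospholipid floppase that neighbors ABCB1 on chromosome 7, was at 6.05, 3.32 and 4.99 FPKM and at 5.40, 5.0 and 3.90 FPKM, a log2 fold change of 0.015 with a 95% interval from -0.49 to 0.52. The bile salt export pump ABCB11, the bile acid importer SLC10A1 and the organic anion importer SLCO1B1 were at 0.12 FPKM or less in every library and were not tested.

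**Figure D4:**
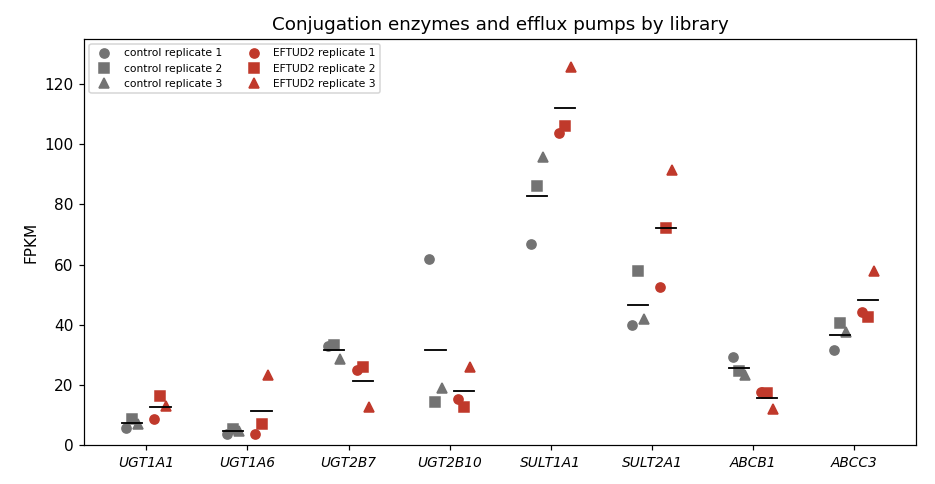
FPKM in each library for 4 glucuronosyltransferases, 2 sulfotransferases and the pumps ABCB1 and ABCC3, gray for control and red for EFTUD2-overexpressing, with the group mean as a bar. ABCB1 is at 23.37 to 29.16 FPKM across the controls and 12.11 to 17.70 FPKM with EFTUD2, and the UGT2B10 mean of the controls is carried by replicate 1 at 61.96 FPKM.

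A wider list of 140 genes of the same pathways was read from the same fit, and 105 of these were tested. In limma 0 passed the adjusted threshold, against 7 with array weights (7.23% of all genes) and 9 with gene-by-gene weights (7.87% of all genes). At an unadjusted p under 0.05, 5 were higher and 4 lower, beside 4.4% and 7.9% of all genes. For 14 genes every EFTUD2-overexpressing library was above every control (13.3%), beside 7.92% of all genes. For 12 genes every such library was below (11.4%), beside 19.4%. Of the 14, CYP39A1, SLCO1B3 and GLYATL1 had control means of 0.0367, 0.0467 and 0.0567 FPKM. They passed the filter only through the EFTUD2-overexpressing libraries and could be counted only as higher, so the share of 13.3% is not read as an excess. After median-of-ratios scaling the counts above and below every control were 22 and 6, where 13.5% and 10.9% of all genes were. Without control replicate 2 the count above was 26, beside 9.74% of all genes, and without control replicate 1 the count below was 19, beside 26.6%. The median log2 fold change was 0.024. By role, 5 of 32 other oxidizing and hydrolyzing enzymes were above and 1 below every control, against 2 and 4 of 26 other conjugating enzymes, 2 and 1 of 10 other bile acid synthesis genes, 2 and 4 of 18 other transporters and 3 and 2 of 19 other receptors and regulators.

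Among the tested genes of the wider list, CES1 had the largest log2 fold change on log2(FPKM + 1). Of these tested genes, CYP39A1, SLCO1B3 and VDR, all low, had larger ratios of means (8.0, 7.07 and 3.98, against 3.08 for CES1). CYP39A1, SLCO1B3, GLYATL1, CYP4F11 and CYP4F12 fell outside the rule for named genes and were chosen after their values were seen. CES1 is a carboxylesterase that hydrolyzes ester drugs. It was at 70.2, 116.7 and 87.4 FPKM across the controls, against 203.3, 318.2 and 324.7 FPKM with EFTUD2. The lowest EFTUD2-overexpressing library was well above the highest control, and replicate 3 stood with its group. The log2 fold change was 1.61 (SE 0.25, unadjusted p = 0.000386 and limma adjusted p = 0.22), and its range over the 14 alternatives was 1.31 to 1.83, with an adjusted p from 0.00693 to 0.612.

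A pair of receptors of the wider list were also above every control. The bile acid receptor FXR (NR1H4) was at 16.57, 19.93 and 19.43 FPKM across the controls, against 27.81, 33.33 and 22.70 FPKM with EFTUD2 (log2 fold change 0.55, SE 0.16, limma adjusted p = 0.402). The vitamin D receptor VDR, which drives CYP24A1, was at 0.13, 0.29 and 0.17 FPKM and at 0.66, 1.37 and 0.32 FPKM, the order of EFTUD2 replicates seen for GSTP1 (log2 fold change 0.54, and 0.31 without EFTUD2 replicate 2). AKR1D1, the steroid 5-beta-reductase of bile acid synthesis, was below every control at 2.90, 3.04 and 4.57 FPKM against 7.39, 4.85 and 5.01 FPKM (log2 fold change -0.58, SE 0.21, limma adjusted p = 0.402). The other genes of this list whose groups were separate and whose log2 fold change was 0.5 or more in size were ALDH2 (0.53) above the controls, and CYP20A1 (-0.64) and NAT1 (-0.59) below them, in addition to CYP4F3 (0.59). Each was under 0.5 in size when 1 library was left out. ALDH2 was at 0.25 without control replicate 1. CYP20A1 was at -0.31, NAT1 at -0.27 and CYP4F3 at 0.30 without EFTUD2 replicate 3. The same held for NR1H4, at 0.42 without EFTUD2 replicate 2, and AKR1D1, at -0.42 without control replicate 1.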

How the data were processed

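RNA-Seq of 6 Hep G2 libraries, 3 per group, was analysed from 1 table of FPKM values that the authors deposited, rounded to 2 decimals. The labels' processing notes name HISAT2, Bowtie2, RSEM, DESeq2 and the build hg38, without versions or roles. Groups and replicate numbers came from the sample titles. Read depth could not be recovered, since low values shared no common step between libraries (the commonest ratio held at most 2.9% of 1929 low genes), and no count test was run. From the deposited FPKM, log2(FPKM + 1) was compared by limma 3.58.1 (trend) in R 4.3.3 over the 17222 genes whose mean over libraries reached 0.1 FPKM, with Benjamini-Hochberg adjustment. The pseudocount of 1 understates changes of low genes.

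The members, gene lists, motifs and alternatives were chosen with earlier results of these data known. All members could be named, and those whose mean reached 1 FPKM in a group, or whose groups were separate, were given library by library. Other pathway genes were named if their groups were separate and their log2 fold change was at least 0.5 in size. The alternatives were a pseudocount of 0.1, keeping all genes or those whose mean reached 1 FPKM, median-of-ratios scaling, quantile normalization, array weights, a block for replicate number and each library left out. Array weights estimated gene by gene were added after the data were seen. The fit was tested on simulated data. Shared sequence was counted as 50-base words of GENCODE release 29 transcripts, and promoters came from RefSeq (GRCh38.p14). Words also found in another gene made up 39.8% for CYP3A7, 34.4% for CYP2D6, 28.9% for AHR and 23.3% for CYP26A1. Python 3.11.15, pandas 2.3.3 and matplotlib 3.10.9 were used.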

Additional observations from a re-analysis of the deposited data

How the results depend on the processing

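Of 608 values of single genes under 14 alternatives, 560 kept their direction and their side of the threshold, 23 passed the threshold in addition and 25 changed sign. The changes of sign fell on 12 of 44 genes. The cause was not tested in any of these cases. Array weights called 1246 genes, 5 members and 7 other pathway genes at an adjusted p of 0.05 (limma), but the weight estimate raised a warning. Weights estimated gene by gene, added after the data were seen, called 1355, 6 and 9. Leaving out 1 library gave 0 to 131 genes and 0 to 2 members, with the calls made without EFTUD2 replicate 3. Members above every control numbered 6 to 9 when 1 library was left out, and other pathway genes 15 to 26 above and 13 to 19 below. Of all genes, 9.74% to 14.7% were then above and 23.5% to 26.6% below, against 7.92% and 19.4% with all 6 libraries. Other pathway genes above every control numbered 9 among genes whose mean reached 1 FPKM (6.95% of all genes). After median-of-ratios scaling 22 were above (13.5% of all genes) and 6 below (10.9%). The median log2 fold change of the members was 0.182 among genes whose mean reached 1 FPKM, 0.131 after median-of-ratios scaling and 0.106 after quantile normalization. That of the other pathway genes was 0.101 after median-of-ratios scaling. Over all genes the medians in these 3 settings were -0.122, 0.0175 and -0.0319, against -0.0749 in the main fit, so both scalings raised the median of all genes too.

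Log2 fold changes that changed sign with array weights were those of CYP2E1 (-0.077), CYP7A1 (0.069), CYP27A1 (-0.013), UGT2B4 (0.149), UGT2B11 (0.08), ABCB4 (-0.005) and NR1I3 (0.041), and with gene-by-gene weights those of CYP7A1 (0.066), CYP27A1 (-0.104) and UGT1A6 (-0.122). NR1I3 was at 0.019 after median-of-ratios scaling. With 1 library left out, the value ran from -0.939 to 0.039 for CYP1A1, -0.031 to 0.127 for CYP2E1, -0.097 to 0.39 for POR, -0.065 to 0.051 for CYP7A1, -0.051 to 0.096 for CYP27A1, -0.948 to 0.076 for UGT2B10, -0.667 to 0.036 for UGT2B11, -0.086 to 0.363 for GSTA2, -0.182 to 0.172 for ABCB4 and -0.146 to 0.059 for NR1I3. With the replicate block, 0 genes and 0 members passed and the member median was 0.038. Deviations from the group mean correlated at -0.299, 0.353 and -0.094 for libraries with the same number. For different numbers the values ran from -0.397 to 0.382. With 3 libraries per group, these correlations cannot decide whether the numbers pair the libraries. The depth is unknown, so no counting error could be given for genes near 0 FPKM.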
